A study of Drosophila melanogaster with 4 samples.

Results

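The genes described here encode cell-surface proteins of the immunoglobulin superfamily: the dpr, DIP, beat and side families of Drosophila melanogaster. Members were chosen by gene symbol in the annotation of the array (dpr followed by a number, or a name starting with DIP-, beat- or side), and a member was tested where it had a value on at least 3 of 4 arrays. The array carried 20 probes for 17 such genes, out of 13824 probes and 6793 named genes in all, and 6 of the 20 probes, each for a different gene, were tested. The 6 are dpr16, dpr6, dpr18, DIP-kappa, beat-Ic and beat-Vb. The gene dpr16 was singled out because an earlier look at these arrays had placed it past a threshold, so its values are a description, and where a fit over all genes is said to call it or not, that is no independent evidence.

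RNA came from whole heads of unmated male flies of the wild-type strain Oregon-R, which carries no transgene, taken up for the treatment at 3 to 4 days of age. Treated flies ate food with 16 mg/ml tetraethylammonium chloride (TEA), an organic cation that blocks potassium channels, for 7 days, and control flies ate normal food for the same time, in vials of 30 flies. Each of 4 biological replicates set a pool of heads from TEA-fed flies against a pool from control flies on 1 two-colour cDNA array, with TEA in the Cy5 dye in replicates 1 and 2 and in the Cy3 dye in replicates 3 and 4. Values are log2 ratios of TEA over control, so 1 stands for a 2-fold higher level with TEA. They assume that the deposited ratio runs Cy5 over Cy3 on every array, which no label states, and all signs would turn if it ran the other way.

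Dpr proteins were named after a fly gene needed for the normal proboscis extension response to salt. They bind DIP proteins (Dpr-interacting proteins) on the surface of neighbouring neurons, in preferred pairs, and in the fly visual system and at the neuromuscular junction such pairs help matching neurons recognise each other and form synapses. Beat proteins (named after beaten path) bind Side proteins (named after sidestep) in a second such network, best known for steering motor axons to their muscles. In the adult fly these genes are known mainly from neurons, where each neuron type uses its own combination. In RNA from whole heads, a change in the number of cells that express a gene and a change in RNA per cell cannot be told apart.

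Detection was counted by family, with too few genes in each to compare the families. Of 8 dpr genes on the array 3 were tested, of 3 DIP genes 1, of 3 beat genes 2 and of 3 side genes none. By probe, 30.0% of the members were tested, against 19.1% of the 7538 other probes with 1 gene symbol. The remaining 11 genes had no value on any array: dpr5, dpr8, dpr14, dpr15, dpr20, DIP-gamma, DIP-zeta, beat-IIa, side-VI, side-VII and side-VIII. No member had values on only 1 or 2 arrays, so the minimum of 3 arrays left out no measured member, and dpr16 and beat-Ic met it with exactly 3. An empty value means that the spot did not pass the filters of the authors, not that the transcript was missing. The empty genes include DIP-gamma, known as a binding partner of the Dpr16 protein, and dpr15, whose product also binds DIP-gamma. No side gene was measured, so the Side partners of the Beat proteins cannot be followed here. The genes dpr8, dpr16 and dpr18 were each spotted as 2 separate probes. For dpr16 and dpr18 only 1 of the 2 had values, and for dpr8 neither had, so the level of dpr16 rests on a single probe of 2 neighbouring spots.

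The arrays held values for 5445 to 6252 of 27648 spots. Over the 1379 tested genes, the array medians of the log2 ratio were -0.10 and -0.09 on the arrays of replicates 1 and 2 (Cy5 for TEA) and 0.26 and 0.06 on those of replicates 3 and 4 (Cy3 for TEA). Of the markers fixed for head cell types, 4 of 13 photoreceptor genes were tested, among them the arrestin Arr1 and the channel trpl, and 1 of 8 glial genes, Gs2. No neuronal marker was tested, and only 1 of those listed was on the array. Of 4 tested fat body markers 3 lay above 0, with means from -0.00 for Lsp2 to 0.78 for apolpp, and apolpp passed in the gene fit (limma adjusted p = 0.022). The medians of these markers were 0.65, 0.61, 0.19 and 0.05 in replicates 1 to 4, higher with TEA in Cy5, as were the values of dpr16 below. By gene, FASN1, bgm and Lsp2 were higher with TEA in Cy5, with no value for bgm in replicate 3. The marker that passed, apolpp, did not follow them, with 0.68, 0.67, 1.18 and 0.605 in replicates 1 to 4. The part of the fat body markers in the results was not tested.

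Among the 6 tested members, dpr16 stood higher with TEA on each array that measured it, and the means of the other 5 lay between -0.26 and 0.34. The log2 ratio of dpr16 was 1.63 in replicate 1, 1.05 in replicate 2 and 0.60 in replicate 4. Replicate 3 had no value. All 3 values lay above 0, and the 2 arrays with TEA in Cy5, replicates 1 and 2, gave the higher ones. As folds these are 3.09, 2.07 and 1.52. The mean was 1.09 ± 0.51 (SD, n = 3), a 2.13-fold higher level with TEA, with a moderated standard error of 0.20 from limma and a plain one of 0.30. Moderation draws the spread of a gene towards that of all genes, so the smaller error leans on the other genes. In this reading of the ratio the mean of dpr16 ranked 2 from the top among 1379 genes. It ranked 4 from the top with replicates 3 and 4 not turned, and would rank 2 from the bottom if all signs turned. On single arrays, in the reading used, 99.6%, 99.5% and 95.7% of the genes lay below it in replicates 1, 2 and 4.

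**Figure D1:**
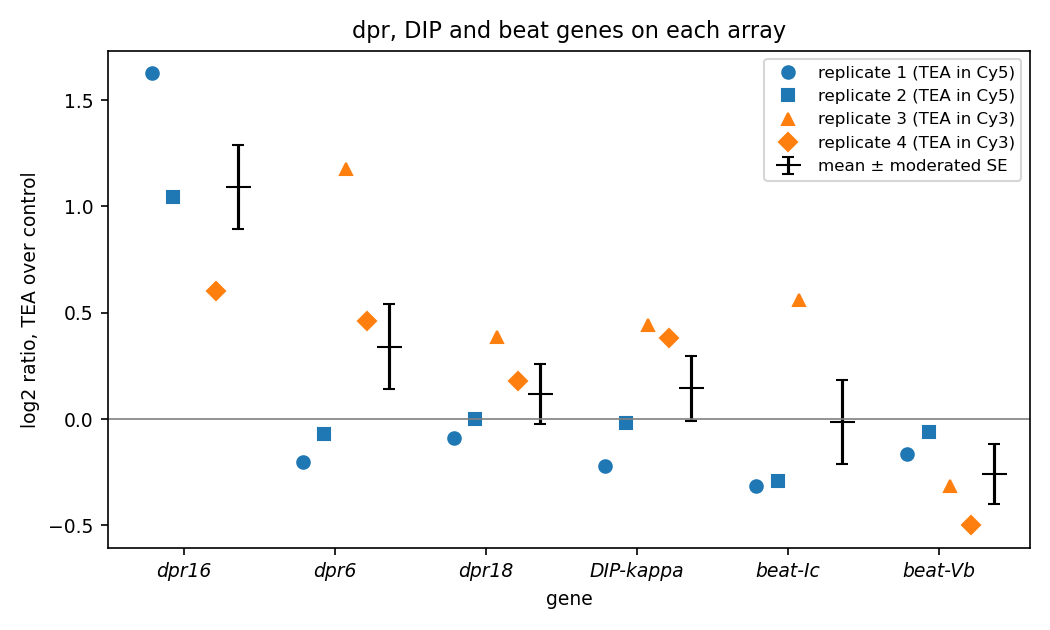
Log2 ratio of TEA over control (vertical axis) of the 6 tested genes on each array, with blue symbols for TEA in Cy5 and orange symbols for TEA in Cy3. The black bar is the mean with its moderated standard error. The 3 values of dpr16 lie between 0.60 and 1.63, and those of the other 5 genes between -0.50 and 1.17.

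The duplicate spots behind dpr16 gave 1.54 and 1.72 in replicate 1, 1.03 and 1.06 in replicate 2, and 0.52 and 0.69 in replicate 4. Spots of 1 array therefore differed by at most 0.18, less than the arrays differed from each other. Over all 22 duplicate pairs of the members the median difference between spots was 0.08, against 0.12 over 11675 pairs of all tested probes. The largest difference within a pair was 0.23, for dpr18 in replicate 4. The table position directly before dpr16 holds CanB, the regulatory subunit of the phosphatase calcineurin, whose mean was 0.06 over 4 arrays. The position directly after it, Obp56e, an odorant-binding protein gene, had no value.

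By mean, the other dpr genes lay below dpr16. The gene dpr6 encodes a Dpr protein known to bind DIP-alpha, for which no probe was found by symbol. Its log2 ratio was -0.20 in replicate 1, -0.07 in replicate 2, 1.17 in replicate 3 and 0.46 in replicate 4. It was below 0 on both arrays with TEA in Cy5 and above 0 on both with TEA in Cy3. Replicate 3, where dpr6 was highest, had no value for dpr16. With TEA in Cy3 the mean of dpr6 was 0.82, against 0.60 for dpr16, which had replicate 4 only. The mean was 0.34 ± 0.63 (SD, n = 4), with a 95% interval from limma of -0.09 to 0.77. In the positions beside dpr6 the unnamed probe before it had a mean of 0.01 (n = 3) and CG15611 after it 0.07 (n = 3), and both were below 0 in replicates 1 and 2 and above 0 in replicate 4, without a value in replicate 3.

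For dpr18 the log2 ratio was -0.09 in replicate 1, 0 in replicate 2, 0.39 in replicate 3 and 0.18 in replicate 4. These values span less than those of dpr6. The mean was 0.12 ± 0.21 (SD, n = 4), and the 95% interval ran from -0.19 to 0.42, which reaches folds of 0.88 to 1.34. Without replicate 3 the mean was 0.03.

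DIP-kappa, the only DIP gene measured, had log2 ratios of -0.22 in replicate 1, -0.02 in replicate 2, 0.44 in replicate 3 and 0.38 in replicate 4. As with dpr6, the 2 dye orientations fell on opposite sides of 0 and did not overlap. In replicate 2, however, its duplicate spots gave 0.095 and -0.13, so they do not settle the sign there. The mean was 0.15 ± 0.32 (SD, n = 4), with a 95% interval of -0.18 to 0.47.

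The beat genes took opposite signs in replicate 3 and the same sign in replicates 1 and 2. The log2 ratio of beat-Ic was -0.32 in replicate 1, -0.29 in replicate 2 and 0.56 in replicate 3, with no value in replicate 4. It was thus below 0 with TEA in Cy5 and above 0 on the 1 array with TEA in Cy3, and its mean of -0.01 ± 0.50 (SD, n = 3) averages values none of which lie near 0. Its 95% interval was -0.44 to 0.41. The mean became 0.14 without replicate 1 and 0.12 without replicate 2, against -0.30 without replicate 3.

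The log2 ratio of beat-Vb was -0.16 in replicate 1, -0.06 in replicate 2, -0.31 in replicate 3 and -0.50 in replicate 4. It was lower with TEA on every array, in both dye orientations, and it was the only member to be so. The mean was -0.26 ± 0.19 (SD, n = 4), a fold of 0.84, with a 95% interval of -0.56 to 0.04. On the arrays with TEA in Cy3, where most genes lay above 0, only 4.45% of genes lay below it in replicate 3 and 2.59% in replicate 4, while it stood near the middle in replicate 1 (42.6%) and replicate 2 (55.6%). The next tested position after it, crc, a transcription factor gene, had a mean of -0.22 over 4 arrays, with -0.51, -0.30, 0.32 and -0.39 in replicates 1 to 4.

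Set side by side, dpr16 exceeded each of the other measured members on all 3 arrays that measured it. Replicate 3, where dpr6 stood at 1.17, had no value for dpr16. In replicate 1 it stood at 1.63, against -0.32 to -0.09 for the other 5. In replicate 2 it stood at 1.05, against -0.29 to 0. In replicate 4 it stood at 0.60, against -0.50 to 0.46 for 4 others, so the gap to the next member, dpr6, was 0.14 there, smaller than the largest difference of 0.23 between duplicate spots. The gap to the median of the others was 1.83 in replicate 1, 1.11 in replicate 2 and 0.32 in replicate 4. By mean, dpr16 stood at 1.09 and the others between -0.26 and 0.34, with a median of 0.12, against a median of 0.02 over all genes. No test of this gap is given, since dpr16 was picked for its level.

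**Figure D2:**
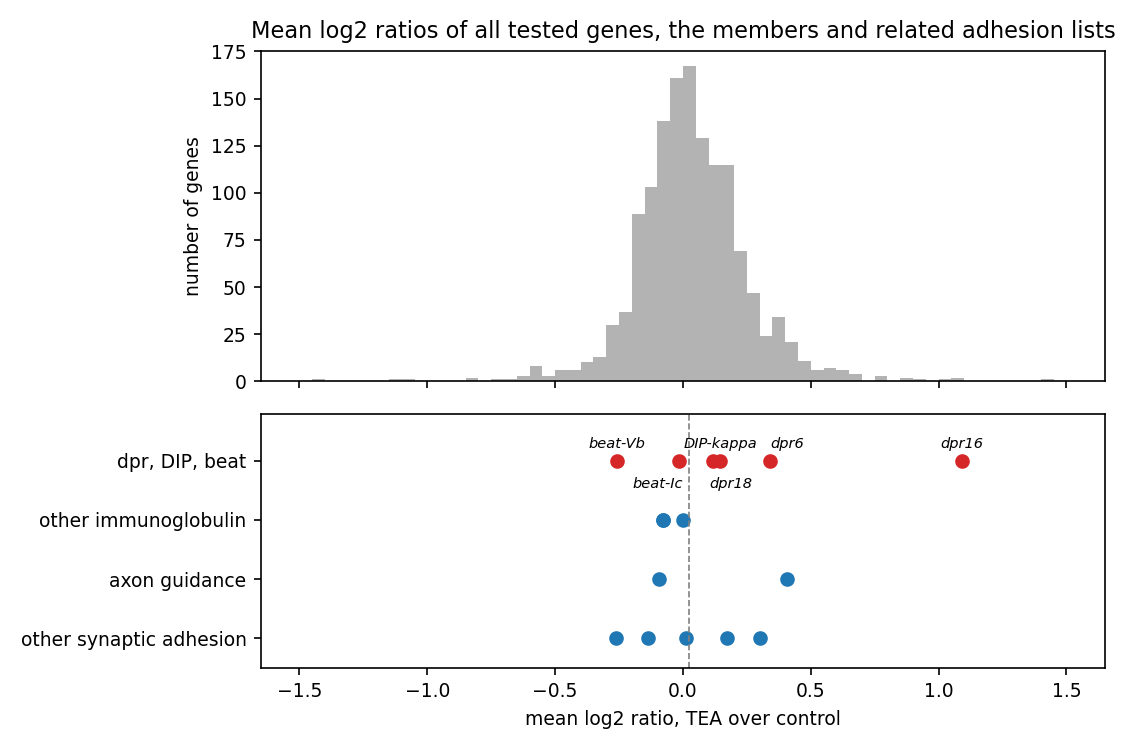
Mean log2 ratio of TEA over control (horizontal axis) for all 1379 tested genes as a histogram (upper panel) and for the 6 members and 3 related lists as points (lower panel), with the median of all genes as a dashed line. The members other than dpr16 lie between -0.26 and 0.34 and dpr16 at 1.09. In the row of other immunoglobulin genes 2 points overlap at -0.08.

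Of the 6 members 1, dpr16, passed an adjusted p of 0.05 in limma's test of gene means (Benjamini-Hochberg adjustment over all genes), where 0.87% of 1379 genes passed, 0.435% in each direction. Since dpr16 was chosen for this contrast, nothing is read from that share. None of the other 5 members passed in that fit, and none had an unadjusted p under 0.05, against 8.92% of all genes. In the fit of single probes 0 of the 6 members passed, against 0.635% of 3150 probes, and 1 of the 6, dpr16, had an unadjusted p under 0.05, as did 8.98% of all probes. The values of dpr16 are the same in both fits. The moderated standard error was 0.20 in the gene fit, with 10.3 prior degrees of freedom, and 0.23 in the probe fit, with 3.29. In the gene fit dpr16 did not pass without replicate 4 (mean 1.34), where only the 2 arrays with TEA in Cy5 remain for it, nor with arrays centred on their medians (mean 1.13).

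Signs over arrays were compared next. Of the 6 members 2, dpr16 and beat-Vb, had 1 sign on every array with a value, as did 18.0% of all genes. By direction, 1 member, dpr16, was above 0 on every such array, as were 9.57% of genes, and 1, beat-Vb, was below 0 on every one, as were 8.41%. Another 3, dpr6, DIP-kappa and beat-Ic, were below 0 with TEA in Cy5 and above 0 with TEA in Cy3, as were 30.5% of all genes, and dpr18 came close to that pattern with a value of 0 in replicate 2. The reverse split was found in no member and in 2.97% of genes. The sign pattern of those 3 members is thus a common one on these arrays. Over all genes the mean with TEA in Cy5 minus the mean with TEA in Cy3 had a median of -0.26. For 80% of genes that difference lay between -0.78 and 0.22. It was -0.95 for dpr6 and -0.86 for beat-Ic, both below the range that holds 80% of genes. It was -0.53 for DIP-kappa and -0.33 for dpr18, within that range. It was 0.74 for dpr16 and 0.29 for beat-Vb, both above the range.

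**Figure D3:**
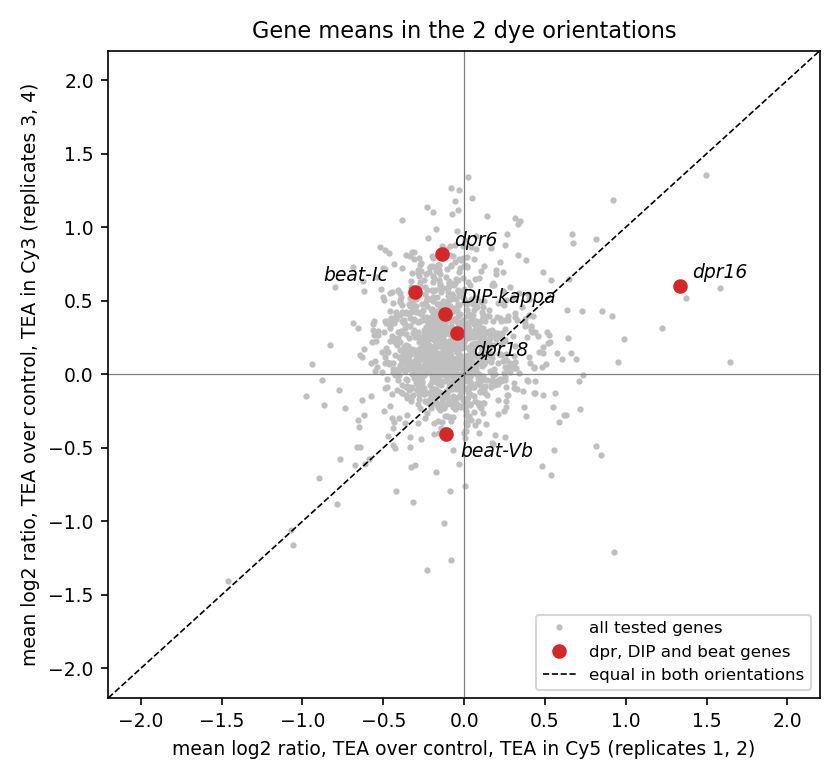
Mean log2 ratio of TEA over control with TEA in Cy5 (horizontal axis) and with TEA in Cy3 (vertical axis) for each tested gene in grey and the 6 members in red, with a dashed line where both are equal. The gene dpr16 has 1.34 and 0.60, beat-Vb -0.11 and -0.41, and the other 4 members lie below 0 on the horizontal and above 0 on the vertical axis.

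The reading of the swapped arrays bears on these values. With replicates 3 and 4 not turned, the mean of dpr16 was 0.69 ± 0.37 (SE, n = 3) and did not pass. The means were then -0.48 ± 0.18 (SE) for dpr6, -0.39 ± 0.13 for beat-Ic, -0.27 ± 0.12 for DIP-kappa, -0.16 ± 0.11 for dpr18 and 0.15 ± 0.14 for beat-Vb. In that reading 3 of the 6 members, dpr6, beat-Ic and DIP-kappa, had an unadjusted p under 0.05 in limma, as did 17.8% of all 1379 genes, and 0 members and 0 genes passed after adjustment. With the dye orientation as a term, which weights both orientations equally, dpr16 stood at 0.97 and beat-Ic at 0.13. In the arrays with TEA in Cy3 alone, dpr6 stood at 0.82 and passed, as did 9.9% of the 1000 genes in that fit, and in those with TEA in Cy5 alone it stood at -0.14. Within a single orientation the dye and TEA cannot be told apart, and the fits to single orientations, with the dye term, without replicate 1 and without replicate 2 used 1 common spread for all genes, so that calls in them do not rest on the spread of dpr16 or dpr6 itself.

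**Figure D4:**
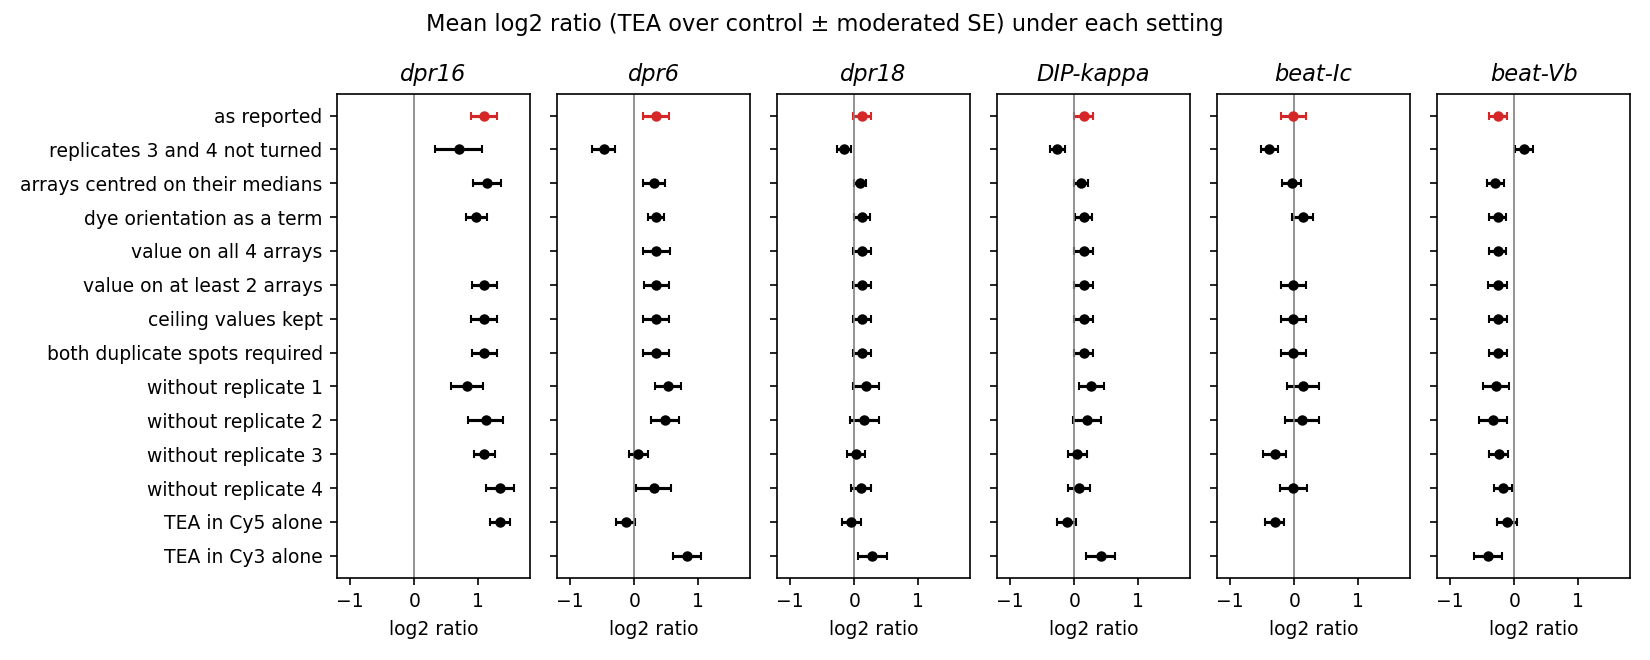
Mean log2 ratio of TEA over control (horizontal axes) with its moderated standard error for each of the 6 members under each setting, with the value as reported in red. The means of dpr16 lie between 0.69, with replicates 3 and 4 not turned, and 1.34. Its values on single arrays are all above 0 as turned, but replicate 4 is below 0 when not turned. The means of dpr6, dpr18, DIP-kappa and beat-Ic each take both signs. That of beat-Vb, whose values as turned are all below 0, is above 0 only with replicates 3 and 4 not turned (0.15).

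Related genes of neuronal adhesion and guidance were taken from 3 lists, with 38 genes on the array and 10 tested. None of the 10 passed in limma, and 1, Eph, had an unadjusted p under 0.05. Their median log2 ratio was -0.04, against 0.02 over all 1379 genes, with 4 of 10 above 0. Of the 10, 5 were below 0 with TEA in Cy5 and above 0 with TEA in Cy3.

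Other immunoglobulin surface proteins were represented by 3 genes. Nrg, the fly neuroglian, an adhesion molecule of neurons and glia, had a mean of -0.00 ± 0.17 (SE, n = 3). The kekkon gene kek4 and CG13506 both had a mean of -0.08 ± 0.14 (SE, n = 4). None of the 3 came near the level of dpr16.

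Of axon guidance genes 2 were tested. Eph, the fly Eph receptor tyrosine kinase, had log2 ratios of -0.08, 0.11, 1.19 and 0.40 in replicates 1 to 4, a mean of 0.41 ± 0.19 (SE, n = 4; limma adjusted p = 0.552). It was highest in replicate 3, as was dpr6. NetB, a secreted netrin, had -0.70, -0.31 and 0.73 in replicates 1, 2 and 4, a mean of -0.09 ± 0.23 (SE, n = 3; limma adjusted p = 0.972).

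Of the other synaptic adhesion genes 5 were tested, with a median of 0.01 and a range of -0.26 to 0.30. The alpha integrin gene mew had 0.28, 0.17, 0.73 and 0.04 in replicates 1 to 4, above 0 on all 4 arrays, with a mean of 0.30 ± 0.15 (SE, limma adjusted p = 0.620). The neuroligin Nlg1, a postsynaptic adhesion protein, had -0.17, -0.20 and -0.41 in replicates 1, 2 and 4, with a mean of -0.26 ± 0.16 (SE, n = 3; limma adjusted p = 0.774). Like beat-Vb it was below 0 on each array with a value. Its paralogue Nlg3 had a mean of 0.17 ± 0.15 (SE, n = 4; limma adjusted p = 0.864).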

How the data were processed

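The deposited values are log2 ratios of the 2 dyes of each array, normalised by the authors with Acuity 4.0 after GenePix Pro 6.0 quantification, per the labels' design text. Spots were filtered by the authors on saturation, flags, pixel regression and signal-to-noise ratio, and those analysable in 3 replicates went to SAM 3.0, with settings not given in the sources used; SAM was not run here. Signal intensity was not used here, so how close a spot lay to background is not given. The number of arrays limits the precision. Replicates 3 and 4 were multiplied by -1, 8 values at a common ceiling were set to missing, the 2 spots of a probe were averaged, and probes with values on 3 arrays were averaged per gene. Of 7558 probes with 1 symbol, 7447 matched the RefSeq table of the Release 6 assembly; 51 had several and 6215 none. No genome build is named, so no coordinates are printed. Means were tested against 0 with limma 3.58.1 (lmFit, eBayes) in R 4.3.3 and adjusted over all features. The fit was tested on simulated data with independent noise and no difference between dye orientations. That test does not cover the dye pattern of these arrays. Replicates are pools from separate sets of vials. Members, lists and tests were chosen with earlier results of these data known. Every tested member is named, with the 3 genes of smallest p per related list and the adjoining table positions. Marker genes were named as examples after their values were seen.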

Additional observations from a re-analysis of the deposited data

How the results depend on the processing

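The precision rests on 3 or 4 arrays per gene, and 2 members had 1 array only in the orientation with TEA in Cy3. Each array already holds both pools of its replicate, so its log2 ratio is the paired difference, and no further pairing was added. The count of members called in the gene fit, 1 in all, was 0 with replicates 3 and 4 not turned, with arrays centred on their medians and with a value required on all 4 arrays, which removes dpr16; leaving out 1 replicate gave 0 to 1, with 0 without replicate 4. The 1 member called with TEA in Cy3 alone was dpr6. In that orientation dpr16 had replicate 4 only and could not be fitted. Member probes called stayed at 0 under all 13 alternatives. Of 1379 genes 12 passed, against 0 with replicates 3 and 4 not turned, 96 with the dye orientation as a term, 4 with a value on all 4 arrays, 165 with TEA in Cy5 alone, 99 of 1000 with TEA in Cy3 alone and 2 to 36 without 1 replicate. Over all probes 20 passed, against 0 with replicates 3 and 4 not turned, with centred arrays, with the dye term and with TEA in Cy3 alone, 3 with TEA in Cy5 alone and 0 to 4 without 1 replicate. The mean of dpr16 was 0.69 to 1.34 in the 11 alternatives that could be fitted. As turned, all its values lie above 0, so leaving out arrays or weighting them otherwise could not change its sign. With replicates 3 and 4 not turned (mean 0.69), its value in replicate 4 lies below 0. Some of the 11 alternatives also used the same values. With replicates 3 and 4 not turned the mean changed sign for dpr6 (-0.48), dpr18 (-0.16), DIP-kappa (-0.27) and beat-Vb (0.15). With TEA in Cy5 alone it did so for dpr6 (-0.14), dpr18 (-0.044) and DIP-kappa (-0.12). For beat-Ic it was 0.13 with the dye term, and -0.30 to 0.14 without 1 replicate. Without replicate 3 the mean was 0.06 for dpr6, 0.05 for DIP-kappa and 0.03 for dpr18. The cause of these moves was not tested.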
